A study of Mus musculus with 12 samples.

Results

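Thymus of gonadal females with 2 X chromosomes was compared with thymus of gonadal females that carry an X and a Y chromosome without Sry, the gene that directs testis development. Both groups have ovaries, so the comparison varies the sex chromosomes at a constant gonadal sex. It used 6 of the 12 arrays of the study: 3 labelled XX female and 3 labelled XY- female, each described as biological replicates. The other 6 arrays came from gonadal males, 3 labelled XXsry and 3 labelled XY-sry, and they entered the fit and the test of whether the difference between complements depended on Sry. All mice were 7 to 8 weeks old. Total RNA of dissected, snap-frozen thymus was measured on one-colour Affymetrix mouse arrays, and strain and litter are not given in the sources used here. Values are the deposited log2 probe set values, and a probe set is a group of short probes that reports 1 transcript. Differences are XX minus XY- on the log2 scale with a standard error, and 0.5 on this scale is a difference of about 1.4-fold.

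Female mammals silence most genes of 1 X chromosome through the RNA Xist, which coats that chromosome. A small group of X-linked genes escapes silencing and is transcribed from both X chromosomes, and several of these have a related partner on the Y chromosome. Because some of the escapees and their Y partners encode chromatin and translation regulators, the complement could in principle alter autosomal genes without any hormonal difference, and the title of the study asks about autosomal expression. The thymus is where T cells mature: most of its cells are double-positive thymocytes, supported by cortical and medullary epithelium.

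The tissue label matched its markers. Of 16 double-positive thymocyte markers, 15 were bright enough to be tested (averaging 5 or more on the log2 scale across the 6 arrays), and their mean lay between 10.3 and 10.4 in all 6 arrays. Of the markers of tissues that can be dissected with the thymus, 3 of 16 for red cells, 3 of 16 for muscle, 2 of 10 for parathyroid and thyroid and 1 of 10 for lymph node stroma passed. A marker could count only through a probe set with 1 gene symbol, so a low count need not mean low signal. Fat cell genes were more present, with 9 of 18: their mean was 7.24, 6.98 and 6.80 in XX and 7.18, 6.95 and 6.88 in XY-, which overlap. The array medians lay between 4.02 and 4.10. XY- replicate 2 stood apart: it was the array farthest from the median of the 6 in 42.6% of autosomal probe sets, against 7.81% to 14.2% for the other 5. It also had the highest median and the smallest difference between the 3′ and 5′ actin control probe sets, a measure of RNA integrity, at 0.51 against 0.66 to 0.77 in the other 5. Many results that rest on this array are therefore given with and without it. Values printed without such a second figure include this array and may depend on it.

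The sex chromosomes themselves separated the groups. Xist was read by 2 probe sets that passed the filter. In the first it had values of 7.60, 7.77 and 7.42 in the XX arrays and 2.55, 2.68 and 2.76 in the XY- arrays, and in the second 11.39, 11.10 and 11.55 against 3.50, 4.19 and 3.94. Every XX array lay above every XY- array. The first differed by 4.93 ± 0.0924 (limma adjusted p = 2.33e-11). The XY- values are too low to give a level, so against a log2 value of 5 the difference is at least 2.60. Adjusted p values are those of limma, fitted to all 12 arrays, after Benjamini-Hochberg adjustment over all tested probe sets.

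Genes of the Y chromosome gave the opposite picture, below the filter because the XX arrays are at background. Eif2s3y, the Y-linked copy of a translation initiation subunit, had values of 2.21, 2.28 and 2.0 in XX and 8.17, 7.14 and 8.16 in XY-. Kdm5d, a Y-linked histone demethylase, had 1.84, 1.94 and 2.11 against 6.82, 6.22 and 6.61. Uty, the Y-linked partner of Kdm6a, had 2.35, 2.05 and 2.29 against 5.46, 4.68 and 5.66. For each of the 3 genes the groups did not overlap. With dim probe sets kept in the fit, all 3 fell in XX (adjusted p = 1.39e-08, 5.04e-10 and 2.59e-06). The probe set for Sry read 5.33, 5.39 and 5.34 in XX and 5.23, 5.55 and 5.65 in XY-, which overlap. In the males it read 6.95, 6.74 and 6.81 in XXsry and 6.90, 6.84 and 7.20 in XY-sry, above all 6 female arrays, as the labels have it.

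Of all 17908 tested probe sets, 13 (0.0726%) passed an adjusted p of 0.05, with 10 (0.0558%) higher and 3 (0.0168%) lower in XX. The 10 higher ones were 2 for Xist, 3 for Eif2s3x, 2 for Kdm6a, 1 each for Kdm5c and Pbdc1, and 1 for Pisd-ps3. The 3 lower ones carried no gene name in the platform table. Every XX array lay between 1.95 and 3.05 there, too low to give a level, so against a log2 value of 5 they were lower in XX by at least 3.68, 2.84 and 2.42.

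**Figure D1:**
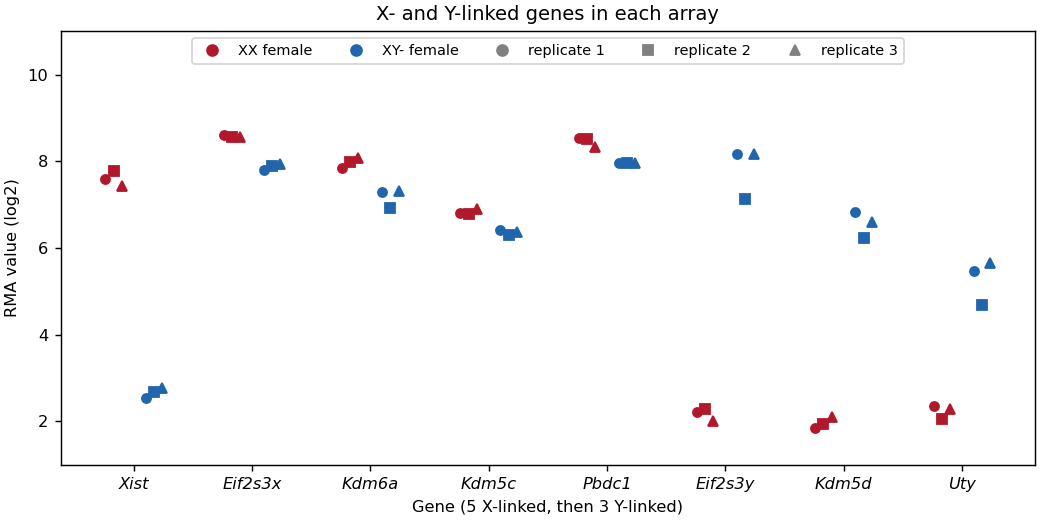
RMA log2 value (vertical axis) of 5 X-linked and 3 Y-linked genes (horizontal axis) in each array, red for XX females and blue for XY- females, with the marker shape giving the replicate. The 3 XX arrays lie above the 3 XY- arrays for each X-linked gene shown and below them for each Y-linked gene; for Xist and the Y-linked genes the lower group lies between 1.84 and 2.76.

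Among the escape genes, Eif2s3x, the X-linked copy of the same initiation subunit, had values of 8.60, 8.57 and 8.55 in XX and 7.81, 7.90 and 7.93 in XY-. All 3 XX arrays were higher, by 0.69 ± 0.0527 (limma adjusted p = 7.04e-05), and this call held in all 21 alternatives in which the probe set was tested; its other 2 probe sets rose by 0.54 each. Kdm6a, an X-linked demethylase of histone H3 lysine 27, had 7.84, 7.98 and 8.07 against 7.30, 6.93 and 7.31. It rose by 0.78 ± 0.10 in its clearest probe set (adjusted p = 0.0111) and by 0.44 ± 0.0665 in its brightest (adjusted p = 0.0363). Kdm5c, an X-linked demethylase of histone H3 lysine 4, had 6.81, 6.79 and 6.91 against 6.42, 6.31 and 6.36 and rose by 0.47 ± 0.0611 (adjusted p = 0.0111). Pbdc1 had 8.53, 8.52 and 8.32 against 7.97, 7.97 and 7.96 and rose by 0.49 ± 0.0693 (adjusted p = 0.0245). In each of these genes the XX arrays stood above all XY- arrays.

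The calls of Kdm6a, Kdm5c and Pbdc1 had little margin. All 3 were lost in a fit to the 6 female arrays alone (adjusted p = 0.221, 0.175 and 0.221) and with the actin difference as a covariate (0.0712, 0.0956 and 0.0692). Kdm6a in its clearest probe set also lost the call without XX replicate 2 (0.0824) or replicate 3 (0.0715), and in its brightest in 9 of the 12 fits that left out 1 array (0.0553 to 0.223). Kdm5c lost it without XX replicate 1 (0.0583) or replicate 3 (0.0715), and Pbdc1 in 7 of the 12 fits (0.0556 to 0.182). The differences moved less: over all alternatives they lay between 0.63 and 0.85 for Kdm6a in its clearest probe set, between 0.41 and 0.50 for Kdm5c and between 0.45 and 0.56 for Pbdc1.

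Of the 17 genes on the list of X escape genes, 13 were measured. By the brightest probe set of each gene, Xist, Eif2s3x, Kdm6a and Pbdc1 rose and 9 did not pass, and the median difference was 0.34, against 0.033 over 9191 autosomal genes. Kdm5c is among the 9 here, since its brightest probe set differed by 0.37 (adjusted p = 0.118). Of the others, 5530601H04Rik, a noncoding transcript of the X chromosome, differed by 0.63 ± 0.136 (adjusted p = 0.198), Ftx, a noncoding neighbour of Xist, by 0.34 ± 0.114 (0.19 without XY- replicate 2), and Utp14a, a ribosome biogenesis factor, by 0.17 ± 0.0662. 5530601H04Rik passed in 1 of 21 alternatives, the fit without XY- replicate 1 (limma adjusted p = 0.0122). Without XY- replicate 2 it differed by 0.46 (limma adjusted p = 0.323). Ddx3x, an RNA helicase with a Y-linked partner, had 10.72, 10.75 and 10.67 in XX and 10.87, 10.85 and 10.85 in XY- in 1 probe set. Its XX arrays were all lower there, by -0.14 ± 0.0642 (adjusted p = 0.457), while its brightest probe set differed by 0.077. The 254 X-linked genes outside the list had a median of 0.043, or 0.00083 without XY- replicate 2, and 0 of them passed. Of the 254, 17 had an unadjusted p under 0.05 on the higher side and 2 on the lower side. Over all autosomal genes, 7.03% were higher and 1.71% lower at that p. Of 13 measured X-linked immune genes 0 passed, with Magt1, a magnesium transporter subunit mutated in an immune deficiency, at 0.16 and Xiap, an inhibitor of apoptosis, at -0.11.

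Pisd-ps3, a pseudogene related to a phosphatidylserine decarboxylase, was the remaining named gene past the threshold. It had 8.77, 8.74 and 8.71 in XX and 7.62, 8.12 and 7.77 in XY-, so the groups did not overlap. It rose by 0.90 ± 0.130 (limma adjusted p = 0.0271), and by 1.04 without XY- replicate 2. No chromosome is given for it in the gene table used, reads of near-identical relatives may contribute to its probes, and the call was lost in 6 of the 12 fits that left out 1 array (adjusted p from 0.0595 to 0.182), in the 6 female arrays alone (0.182) and with the actin covariate (0.0643).

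No probe set placed on an autosome passed: 0 of 15270 (0.0%; limma). The 2175 tested probe sets without a chromosome are not counted among these, and Pisd-ps3 and the 3 unnamed calls were of that kind. An unadjusted p under 0.05 was reached by 1574 (10.3%), with 1062 (6.95%) higher and 512 (3.35%) lower in XX. Leaving out 1 array gave between 0 and 6 autosomal calls: 6 without XY- replicate 3, 3 without XY-sry replicate 2, 2 without XY-sry replicate 1, 1 each without XX replicate 1, XX replicate 3, XY- replicate 1 and XY- replicate 2, and 0 without any of the other 5. Array weights, which let noisy arrays count less, gave 1327, with a weight of 6.86 on XY- replicate 1, 0.574 on XY- replicate 3 and 0.202 on XY- replicate 2, so the XY- mean rested almost wholly on 1 array.

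The size of a difference was bounded for most of the tested autosomal probe sets. Intervals of 95% reached no further than 0.5 from zero in 94.7% of the autosomal probe sets, 0.3 in 70.1% and 1 in 99.2%. By the brightest probe set of each of 9191 autosomal genes, the lowest and highest interval bounds were -3.10 and 4.63. The median standard error was 0.0764. The median autosomal difference was 0.03, and the percentiles at 1 and 99 were -0.44 and 0.30. In all, 62.5% of autosomal probe sets were higher in XX; this share was 51.2% without XY- replicate 2, 72.6% after centring each array on its median and 48.0% with the actin difference as a covariate. Of the probe sets with an unadjusted p under 0.05, 67.5% were higher. This share was 54.1% without XY- replicate 2 (664 higher and 563 lower), 50.7% with the actin covariate and 78.4% after centring. The XX and XY- arrays did not overlap in 1402 (9.18%) autosomal probe sets on the higher side and in 648 (4.24%) on the lower side.

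**Figure D2:**
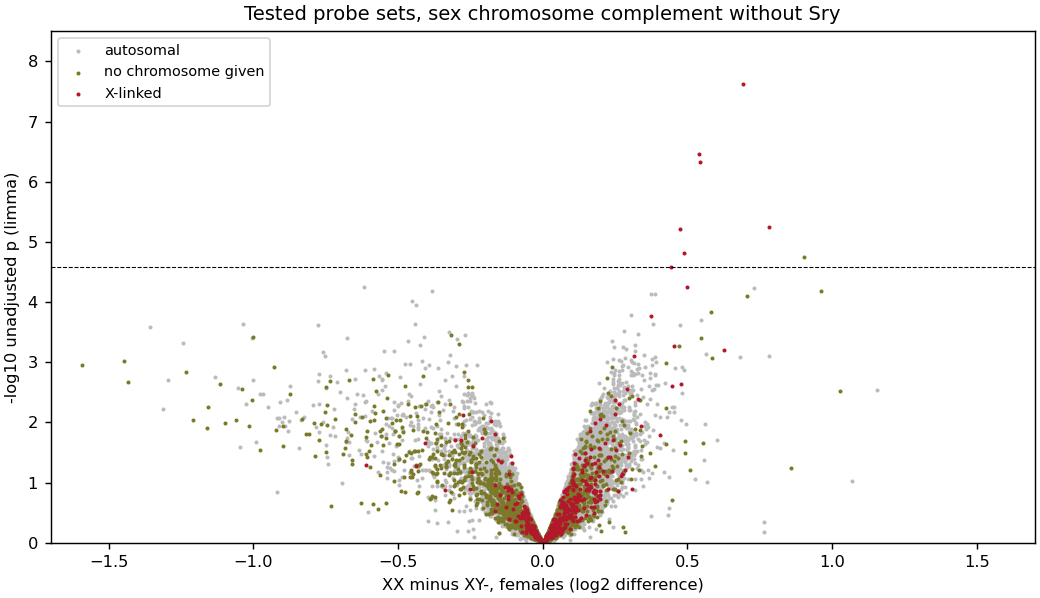
Difference between XX and XY- females (horizontal axis, log2) against the unadjusted limma p on a -log10 scale (vertical axis) for the tested probe sets, grey for autosomal, red for X-linked and olive for probe sets without a chromosome; the dashed line marks the p of the last probe set past the threshold. Points above the line are X-linked or without a chromosome, and 5 probe sets (2 X-linked, 3 without a chromosome) lie outside the axes.

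The autosomal genes with the smallest p on the higher side included enzymes of lipid, polyamine and purine synthesis. Gm6958, a predicted gene, had 8.05, 8.58 and 8.34 in XX and 7.47, 7.62 and 7.69 in XY-, a difference of 0.73 ± 0.119 (limma adjusted p = 0.0649), and its other probe set differed by 0.78. It passed without XX replicate 1 (adjusted p = 0.0112) and with each array centred on its median (0.0362). Odc1, ornithine decarboxylase, the first enzyme of polyamine synthesis, had 8.77, 8.89 and 8.74 against 8.48, 8.28 and 8.47, a difference of 0.39 ± 0.0654 (adjusted p = 0.0668). Its other 2 probe sets differed by 0.18 and 0.15. In both genes every XX array was higher than every XY- array.

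Cds1 makes CDP-diacylglycerol, a precursor of phosphatidylinositol and cardiolipin, and had 6.05, 5.92 and 5.95 in XX against 5.58, 5.70 and 5.52 in XY-. The difference was 0.37 ± 0.0627 (adjusted p = 0.0668, 0.0315 without XY- replicate 2 and 0.031 with centring), while its second probe set differed by 0.067. Crls1, cardiolipin synthase, differed by 0.31 ± 0.0563 (adjusted p = 0.117) and by 0.18 in its second probe set. Rraga, a Rag GTPase that signals amino acids to mTORC1, had 7.54, 7.53 and 7.50 against 7.03, 6.72 and 7.18, with XY- replicate 2 the lowest of the 6. It differed by 0.55 ± 0.103 (adjusted p = 0.132), and by 0.42 without that array.

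Lmnb1, the nuclear lamina protein lamin B1, had 8.40, 8.30 and 8.02 in XX and 7.83, 7.82 and 7.65 in XY-. The difference was 0.47 ± 0.0910 (adjusted p = 0.136, and 0.0200 without XX replicate 3), and 0.39 in its second probe set. Hspa9, the mitochondrial Hsp70 chaperone, had 8.73, 8.75 and 8.58 against 8.41, 8.41 and 8.40 and differed by 0.28 ± 0.0553, with 0.26 and 0.17 in its other probe sets. The groups did not overlap in either gene. Of the remaining higher genes, Trgv1, a variable segment of the T cell receptor gamma locus, differed by 0.38, Pfas, a purine synthesis enzyme, by 0.33, Gas5, a noncoding host of small nucleolar RNAs, by 0.32, Foxred1, an assembly factor of respiratory complex I, by 0.28, and Lrrc59 by 0.24. Their adjusted p lay between 0.136 and 0.186.

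On the lower side several of the smallest p values came from a dim probe set of a gene that has brighter ones. Rap2b, a small GTPase of the Ras family, had 5.08, 5.19 and 5.00 in XX and 5.76, 5.71 and 5.65 in XY-, a difference of -0.62 ± 0.101 (limma adjusted p = 0.0649), and its brighter probe set differed by 0.077. Tob2, an antiproliferative protein, had 5.70, 5.69 and 5.68 against 6.10, 6.04 and 6.08, at -0.38 ± 0.0633 (adjusted p = 0.0649), and its other 3 differed by -0.11, -0.07 and -0.01. Timp3, an inhibitor of matrix metalloproteinases, had 5.41, 5.26 and 5.37 against 5.61, 5.91 and 5.87, at -0.45 ± 0.0778 (adjusted p = 0.0784), and its brighter one differed by -0.12. The groups did not overlap in the first probe set of any of the 3 genes. The adjusted p fell below 0.05 in single fits that left out an array: for Rap2b and Tob2 without XY-sry replicate 1 (0.0132 and 0.0329) or replicate 2 (0.0127 and 0.0217), and for Timp3 without XY- replicate 1 (0.0103).

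The other 9 lower genes were Ccdc88c, a regulator of Wnt signalling (-0.44), Kmt2e, a chromatin protein of the trithorax group (-1.04), 4632427E13Rik (-0.44), Elavl1, an RNA-stabilizing protein (-0.78, with an XX mean below 5), Hnrnpab, an RNA-binding protein (-1.36), Plpp3, a lipid phosphatase (-0.32), Arhgef12 (-0.27), Pdcd6ip, a partner of the ESCRT machinery (-0.41), and Fam102b (-1.0). Their adjusted p lay between 0.0862 and 0.165. For all of them but Plpp3, XY- replicate 2 was the highest of the 6 arrays. Without it, Kmt2e differed by -0.78, Hnrnpab by -1.08 and Fam102b by -0.71. The XX mean of Ccdc88c was also below 5. The brightest probe sets of Ccdc88c, Kmt2e, 4632427E13Rik and Elavl1 differed by 0.15, -0.10, -0.10 and 0.06. Those of Hnrnpab, Plpp3, Pdcd6ip and Fam102b differed by 0.07, 0.0033, 0.01 and 0.02. For Arhgef12 the dimmer probe set differed by 0.02.

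**Figure D3:**
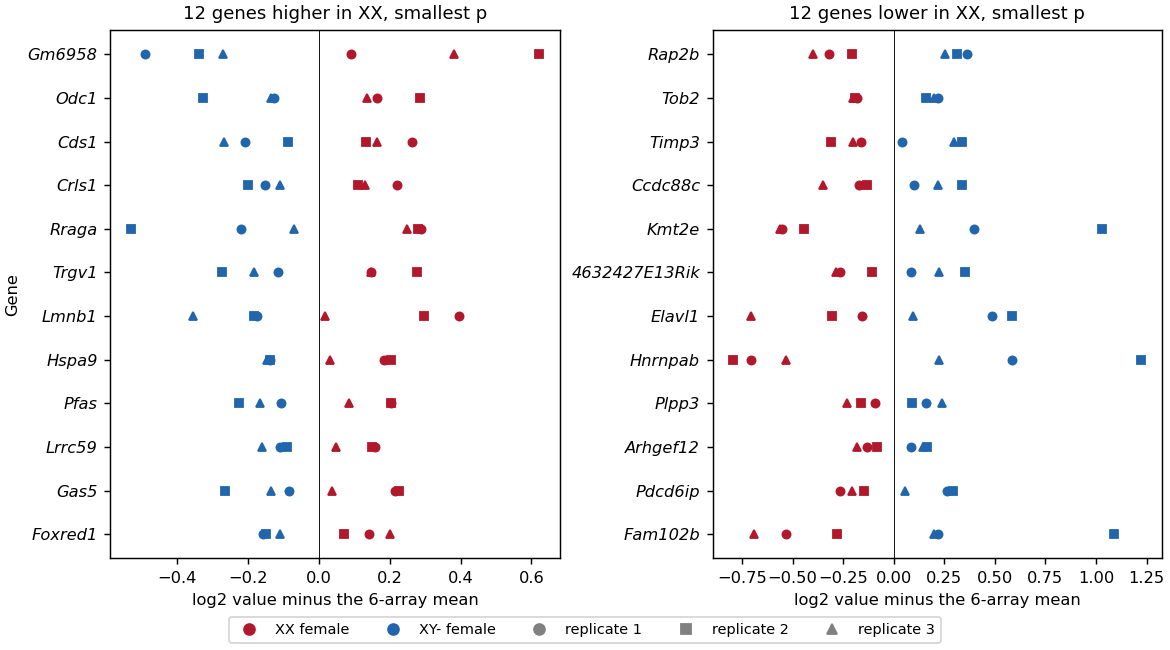
Value of each array minus the mean of the 6 arrays (horizontal axis, log2) for the 12 autosomal genes with the smallest p on the higher side (left) and the 12 on the lower side (right), red for XX females and blue for XY- females, marker shape for the replicate. The groups do not overlap in any of the 24 genes, which the ranking by p favours, and the blue square of XY- replicate 2 is farthest to the right for Kmt2e, Hnrnpab and Fam102b.

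Large differences ran mostly one way and mostly through 1 array. Of autosomal probe sets, 14 were higher in XX by 0.5 or more and 123 were lower by 0.5 or more. In 115 of the 123, XY- replicate 2 was the highest of the 6 arrays. Without that array the counts were 16 and 55, and the number lower by at least 1 went from 11 to 3.

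Probe sets whose groups did not overlap were also ranked by the size of the difference, with the most different one kept for each gene. The first 10 autosomal genes were all lower in XX, and XY- replicate 2 was the highest array in 9. Hnrnpab had 9.43, 9.34 and 9.60 in XX and 10.72, 11.36 and 10.36 in XY-, a difference of -1.36 ± 0.263, or -1.08 without XY- replicate 2. Its other 4 probe sets, 3 of them brighter, differed by 0.01 to 0.25. Krit1, a protein of endothelial junctions, had 5.03, 5.33 and 4.92 against 6.19, 7.55 and 5.48, a difference of -1.31 ± 0.391, or -0.74 without that array. Its brightest probe set differed by 0.14 and its remaining one by -0.33. Phip had 5.96, 6.32 and 5.53 against 7.02, 7.99 and 6.68, a difference of -1.29 ± 0.326, or -0.91 without that array. Its other 5 probe sets differed by -0.95 to 0.13, the brightest by 0.06. In these 3 genes all XY- arrays were above all XX arrays, and XY- replicate 2 was far above the other 2.

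The same held for most of the rest. Kmt2e (-1.24 in its most different probe set), Matr3, a nuclear matrix protein (-1.13), Cdca7, a chromatin protein of dividing cells (-1.05), Btg1, an antiproliferative protein of quiescent lymphocytes (-1.02), Elf1, an Ets factor of lymphocytes (-1.0), and Fam102b (-1.0) each had a brighter probe set, which differed by -0.10, 0.07, 0.11, -0.09, 0.21 and 0.02, in that order. Ighm, the immunoglobulin heavy chain of IgM, was the exception for the array: its probe set read 5.23, 4.16 and 5.26 in XX and 6.17, 5.86 and 5.76 in XY-, with XY- replicate 1 the highest. It differed by -1.05 ± 0.408, while the other 5 probe sets of the gene differed by -0.52 to 0.24, the brightest by 0.15. The XX means of Matr3, Cdca7, Btg1 and Ighm were below 5, so their rank among the 10 is uncertain. With 5 in place of the XX mean, the XY- mean was higher by 0.83, 0.53, 0.90 and 0.93. These values set no lower limit, since XY- replicate 2 enters the XY- mean. Without that array Matr3, Cdca7 and Btg1 differed by -0.745, -0.735 and -0.605, Ighm by -1.08, and Kmt2e and Elf1 by -0.88 and -0.64. All 10 probe sets were dimmer than another of the same gene. None of the 10 passed (adjusted p from 0.14 to 0.395), and what part XY- replicate 2 or its actin difference played was not tested.

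Autosomal programmes were described by lists with 1 probe set per gene, the brightest. Over all 9191 autosomal genes the median difference was 0.033 (0.0033 without XY- replicate 2), 6007 were above zero, 646 (7.03%) were higher and 157 (1.71%) lower with an unadjusted p under 0.05, and the groups did not overlap in 858 (9.34%) on the higher side and 266 (2.89%) on the lower side. In each of the autosomal lists 0 members passed the adjusted threshold. The lists were chosen with earlier results of these data known.

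**Figure D4:**
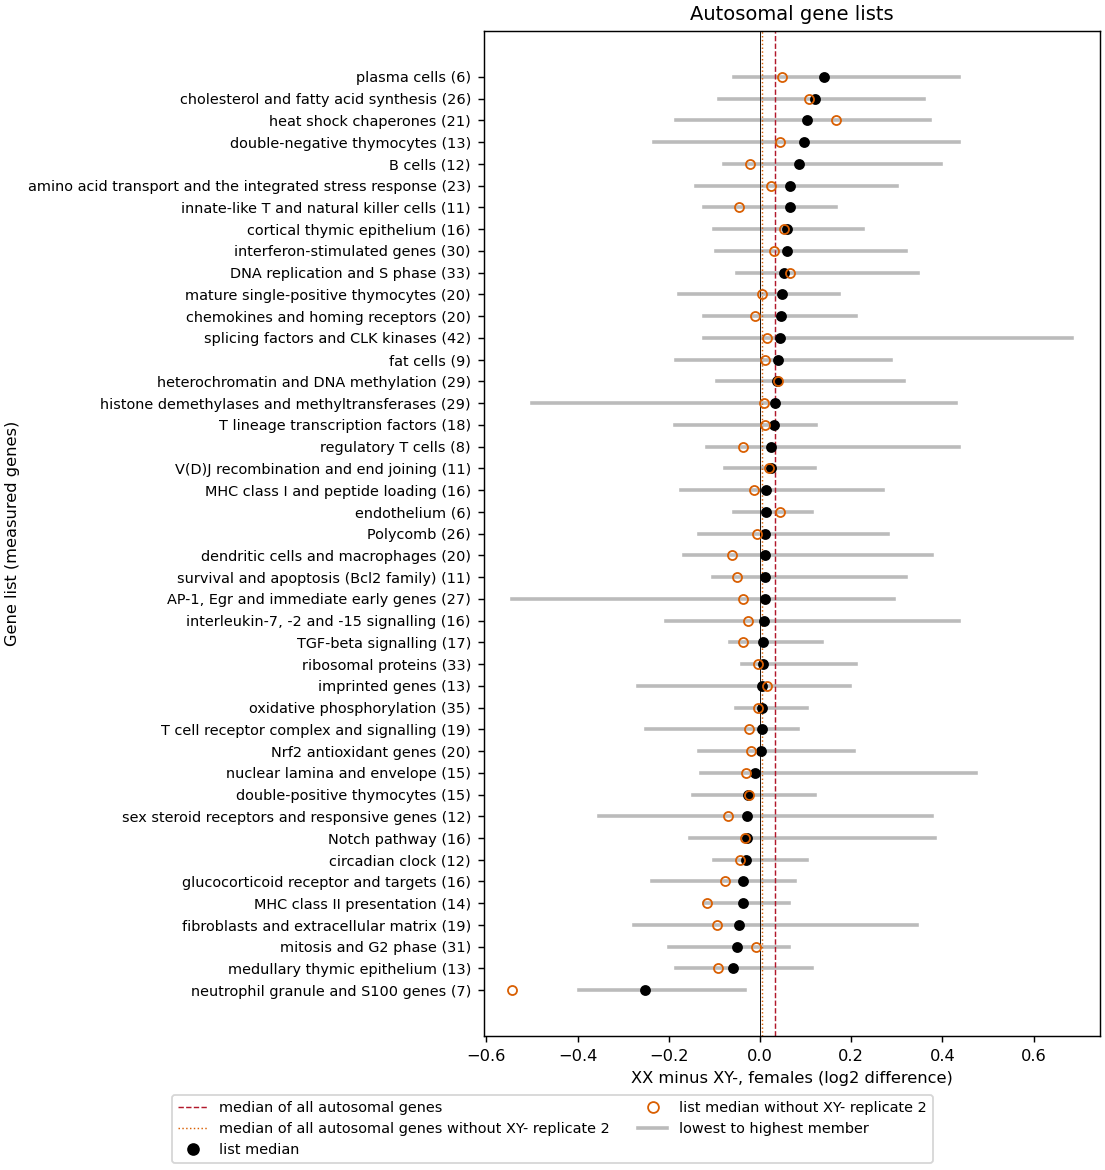
XX minus XY- difference (horizontal axis, log2) for the autosomal gene lists with at least 5 measured genes: black dots are list medians, open orange circles the medians without XY- replicate 2, and grey bars run from the lowest to the highest member; the dashed line is the median of all autosomal genes, 0.033, and the dotted orange line the same without XY- replicate 2, 0.0033, against which the circles are to be read. The medians run from -0.25 for neutrophil genes to 0.14 for plasma cell genes, and the neutrophil median moves to -0.55 without XY- replicate 2.

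Genes of cholesterol and fatty acid synthesis lay on the higher side. Of 26 measured, 23 were above zero, the median was 0.12 (0.11 without XY- replicate 2), and 7 had an unadjusted p under 0.05, all higher, beside 7.03% of all autosomal genes. Hmgcs1, which makes the precursor of mevalonate, had 8.23, 8.56 and 8.21 in XX and 8.07, 7.90 and 7.95 in XY-, a difference of 0.36 ± 0.104 (adjusted p = 0.288). Cyp51, the lanosterol demethylase, had 5.74, 6.09 and 5.73 against 5.60, 5.56 and 5.39, a difference of 0.34 ± 0.104. Acly, which supplies cytosolic acetyl-CoA, differed by 0.12 and Elovl6, a fatty acid elongase, by 0.20. The XX arrays were above all XY- arrays for Hmgcs1, Cyp51 and Acly but not for Elovl6. The mean of the 26 genes was 7.10, 7.20 and 7.06 in XX and 7.07, 6.99 and 6.91 in XY-, so over the whole list the groups overlapped.

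Heat shock chaperones had a median of 0.10 over 21 genes (0.17 without XY- replicate 2), 17 of them above zero, with Hspa9 as above and Hspa4, a nucleotide exchange factor for Hsp70, at 0.14. Among 23 genes of amino acid transport and the integrated stress response, 18 were above zero. Of the 23, 5 had an unadjusted p under 0.05 on the higher side, beside 7.03% of all autosomal genes. The 5 included Slc7a5, a leucine transporter (0.30), and Slc7a6, a cationic amino acid transporter (0.23). Phgdh, the first enzyme of serine synthesis (0.19), and Xbp1, a transcription factor of the unfolded protein response (0.15), were also among them. The list median was 0.067, or 0.023 without XY- replicate 2.

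Cell cycle genes differed little. Of 33 measured genes of DNA replication and S phase, 28 were above zero, with a median of 0.053 (0.067 without XY- replicate 2) and Rfc5, a clamp loader subunit, at 0.15. Of 31 genes of mitosis and G2 phase, 4 were above zero, with a median of -0.05 (-0.0083 without XY- replicate 2) and Kif11, a spindle motor, at -0.20. Rfc5 and Kif11 were the members with an unadjusted p under 0.05, 1 in each list, beside 7.03% of autosomal genes higher and 1.71% lower. The list means overlapped in both: 8.68, 8.73 and 8.57 in XX against 8.62, 8.67 and 8.51 in XY- for replication, and 8.59, 8.67 and 8.61 against 8.75, 8.76 and 8.53 for mitosis.

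Chromatin regulators, the class to which Kdm5c and Kdm6a belong, held no autosomal call. Of 26 measured Polycomb genes, which maintain silencing through histone H3 lysine 27, 14 were above zero with a median of 0.012. Pcgf6 (0.28), Bmi1 (0.21), Yaf2 (0.20) and Ezh1 (0.15) had an unadjusted p under 0.05, which is 4 of the 26. Over all autosomal genes, 7.03% were higher at that p. Without XY- replicate 2 the 4 genes differed by 0.26, 0.18, 0.11 and 0.08. Bmi1 read 8.28, 8.43 and 8.21 in XX and 8.09, 8.02 and 8.17 in XY-, without overlap. Among 29 histone demethylases and methyltransferases, Kdm6b, the autosomal relative of Kdm6a, had 9.57, 9.77 and 9.39 in XX and 9.03, 9.32 and 9.09 in XY-. All XX arrays were higher, by 0.43 ± 0.135, and the adjusted p was 0.315. Kmt2d, a histone H3 lysine 4 methyltransferase, differed by 0.32, Prmt1, an arginine methyltransferase, by 0.15, and Nsd3, a histone H3 lysine 36 methyltransferase, by -0.50, or -0.28 without XY- replicate 2. The 29 genes of heterochromatin and DNA methylation had a median of 0.037, with the de novo DNA methyltransferase Dnmt3b at 0.32 and the lysine 9 methyltransferase Setdb2 at 0.16, both with overlapping groups. In the nuclear lamina and envelope list, 6 of 15 were above zero, with Lmnb1 at 0.47 and Nup98, a nuclear pore protein, at -0.13.

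Splicing factors had 32 of 42 genes above zero and a median of 0.043 (0.015 without XY- replicate 2). Of the 42, 5 had an unadjusted p under 0.05, all higher, beside 7.03% of all autosomal genes. Arglu1, a splicing and transcription cofactor, had 9.02, 8.91 and 9.19 in XX and 8.40, 8.11 and 8.56 in XY-, a difference of 0.68 ± 0.153 (adjusted p = 0.216), while its dimmer probe set differed by -0.24. Srsf2 (0.15), Prpf4b (0.18) and Hnrnpl (0.20) differed by less, and without XY- replicate 2 Prpf4b differed by 0.12 and Hnrnpl by 0.10. Ribosomal proteins (33 genes) and oxidative phosphorylation genes (35) had medians of 0.0067 and 0.0033 and no member with an unadjusted p under 0.05.

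Thymocyte genes differed little. The 15 double-positive markers had a median of -0.027, the 20 mature single-positive markers 0.048, the 18 T lineage transcription factors 0.032 and the 11 genes of V(D)J recombination 0.023, and the interval of every measured member of these lists lay within 0.5 of zero. In bulk tissue, fewer cells of a type and less RNA per cell cannot be told apart. Among 19 T cell receptor signalling genes, Cd28, the costimulatory receptor, had 10.04, 10.15 and 10.06 in XX and 10.32, 10.34 and 10.34 in XY-, lower in all 3 XX arrays by -0.25 ± 0.0698 (adjusted p = 0.279). Bcl11b, a T lineage commitment factor, differed by -0.19, and Id3, an inhibitor of E proteins, by -0.17.

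Double-negative markers were more spread. Il2ra, the interleukin-2 receptor alpha chain of early thymocytes and regulatory T cells, had 6.05, 6.14 and 5.63 in XX and 5.58, 5.42 and 5.51 in XY-, a difference of 0.44 ± 0.133. Notch3 had 6.02, 6.09 and 5.97 against 5.74, 5.48 and 5.71, a difference of 0.38 ± 0.101, and Dtx1, a Notch target, differed by 0.29. Spi1, the myeloid and early progenitor factor PU.1, differed by -0.23. Il2ra and Notch3 were higher in every XX array, the groups overlapped for Dtx1, and the list median was 0.097, or 0.043 without XY- replicate 2. Of the 16 measured Notch pathway genes 7 were above zero, with the target Hey1 at 0.18.

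Stromal and other cell types gave differences of similar size. Of 16 cortical epithelial genes 13 were above zero, with Psmb11, the thymoproteasome subunit, at 0.23 and Ly75, an endocytic receptor, at 0.20 (0.12 without XY- replicate 2), both with overlapping groups. Of 13 medullary epithelial genes 3 were above zero, with Krt5 at -0.13. Among 19 fibroblast and matrix genes, Sparc differed by -0.21, Dcn by -0.28 and Lum by 0.34. Of 12 B cell genes, Pou2af1, a B cell transcription coactivator, had 6.51, 6.75 and 6.55 in XX and 6.32, 5.99 and 6.31 in XY- and differed by 0.40 ± 0.155; the list median was 0.085, and -0.022 without XY- replicate 2.

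Neutrophil genes were high in 1 array. All 7 measured were below zero, with a median of -0.25, but the mean of the 7 was 6.80, 6.52 and 6.03 in XX and 6.32, 6.21 and 7.50 in XY-, with XY- replicate 3 alone high. The parathyroid hormone gene Pth, a sign of adjoining parathyroid tissue, had 5.50, 5.17 and 6.01 against 6.19, 5.97 and 6.42, which overlap, and differed by -0.63 ± 0.253.

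Immediate early genes, which respond within minutes to stimulation or handling of tissue, had a median of 0.01 over 27 genes. Of the 27, 3 had an unadjusted p under 0.05, all lower in XX, beside 1.71% of all autosomal genes. Btg2, an antiproliferative early response gene, had 10.15, 10.17 and 10.31 in XX and 10.74, 10.97 and 10.55 in XY-, a difference of -0.54 ± 0.142 (adjusted p = 0.253), or -0.43 without XY- replicate 2. Junb, an AP-1 subunit, had 6.15, 6.31 and 6.22 against 6.52, 6.43 and 6.51, a difference of -0.26 ± 0.0712, and Nfkbia, the NF-kappaB inhibitor, differed by -0.12. All XX arrays were lower in these 3 genes. Of the sex steroid genes, Hsd17b12 had 7.95, 7.91 and 7.85 against 7.58, 7.31 and 7.69 (0.38 ± 0.0853, adjusted p = 0.216), and Esr1, the estrogen receptor alpha, 5.01, 4.96 and 5.08 against 5.45, 5.10 and 5.56 (-0.35 ± 0.113, adjusted p = 0.316), or -0.49 without XY- replicate 2.

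Immune response genes were near the autosomal median. Of 30 interferon-stimulated genes 24 were above zero with a median of 0.058, and Rsad2, an antiviral enzyme, differed by 0.32 with overlapping groups. Pdia3, a chaperone of peptide loading, had 9.54, 9.58 and 9.47 in XX and 9.30, 9.19 and 9.29 in XY-, higher in all XX arrays by 0.27 ± 0.0821. H2-T24, a nonclassical class I gene, had 6.23, 6.22 and 6.32 against 6.42, 6.37 and 6.50, lower by -0.17 ± 0.0597. Neither passed (adjusted p = 0.301 and 0.342).

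Whether the complement difference itself depended on Sry was tested as XX minus XY- in females minus XX minus XY- in males. The 2 contrasts share no arrays. Of 15270 autosomal probe sets, 191 (1.25%) passed: 44 (0.288%) passed with a higher and 147 (0.963%) with a lower XX minus XY- contrast in females. In all 191 the contrasts had opposite signs, and in 60 of the 191 the larger of the 2 was that in females. The 191 were selected by the size of the difference between the 2 contrasts, which favours opposite signs. The share with opposite signs over all autosomal probe sets was not computed. XY- replicate 2 was the highest of the 6 female arrays in 124 of the 147, and the lowest in 29 of the 44.

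These calls depended on single arrays and on whether the actin difference was a covariate. The count of 191 was 0 without XX replicate 1, XXsry replicate 2, XXsry replicate 3, XY-sry replicate 1 or XY-sry replicate 3, each left out alone, and 11, 32, 63 and 78 without XX replicate 3, XX replicate 2, XY- replicate 1 and XXsry replicate 1. The autosomal probe sets with an unadjusted p under 0.05 numbered 1955 with all arrays and 1577 to 1680 in the 5 fits with 0 calls. The count of calls was 176 without XY- replicate 2, 298 without XY-sry replicate 2 and 328 without XY- replicate 3. With the actin difference as a covariate it was 1, and with 1 probe set per gene it was 15. The actin difference ran from 0.51 to 0.69 in XY- females, 0.66 to 0.77 in XX females, 0.71 to 0.76 in XXsry males and 0.74 to 0.83 in XY-sry males, so it moves with the groups and its part cannot be told apart from theirs.

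Among the genes with the smallest p for this difference, Lmnb1 was higher in XX than in XY- without Sry (0.47) and lower with Sry, where it read 7.68, 7.82 and 7.79 in XXsry and 8.21, 8.19 and 8.30 in XY-sry. The difference of the 2 contrasts was 0.94 ± 0.129 (limma adjusted p = 0.021), and 0.76 in its second probe set. Gm6958 (0.97), Rraga (0.86) and the RNA-processing genes Arglu1 (1.35), Snrpd3 (1.05) and Prpf19 (1.07) ran the same way, as did Swi5, a recombination repair factor (0.80), and Ywhab, a 14-3-3 protein (0.64). For Prpf19 the other 3 probe sets gave -0.05 to -0.14 and for Arglu1 the dimmer one -0.32.

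In the other direction, Slc25a30, a mitochondrial carrier, was lower in XX without Sry (-0.26) and higher with Sry, at 6.17, 6.08 and 6.35 in XXsry and 5.54, 5.60 and 5.30 in XY-sry. The difference was -0.98 ± 0.131 (adjusted p = 0.021), and its other 2 probe sets gave -0.73 and -0.66. Cd28 read 10.00, 10.05 and 10.16 in XXsry and 9.52, 9.78 and 9.60 in XY-sry, so it was higher in XX with Sry (0.44) and the difference was -0.69 ± 0.0987 (adjusted p = 0.021). Both genes were without overlap in both contrasts. Plpp3 (-0.72), Nlk, a kinase of Wnt signalling (-0.70), Zbtb20, a zinc finger repressor (-0.98), Msi2, an RNA-binding protein of progenitor cells (-1.09), Enpp5 (-0.61), Rap2b (-1.01) and Ccdc88c (-0.81) also passed. For Ccdc88c the other 2 probe sets gave 0.12 and 0.29, for Rap2b the brighter one 0.16, for Plpp3 -0.06 and for Nlk the other 2 gave 0.13 and 0.30. The other probe sets of Msi2 gave -0.19 to -0.28 and those of Zbtb20 -0.04 to -0.57. Of the X-linked escape genes, Ddx3x passed at -0.51 ± 0.0908 (adjusted p = 0.0279), with XX minus XY- at -0.14 without Sry and 0.36 with it in that probe set; its other 2 gave -0.38 and 0.14 and did not pass. For Eif2s3x, Kdm6a, Kdm5c and Pbdc1 the difference did not pass (0.07, 0.14, -0.05 and 0.18 in the probe set with the smallest p).

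**Figure D5:**
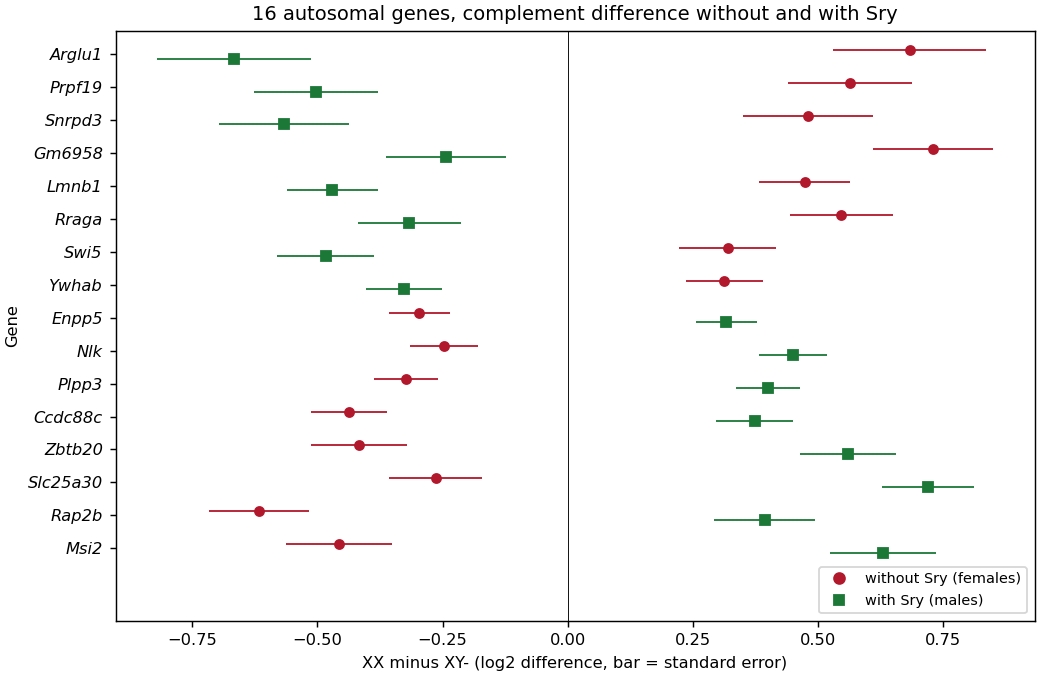
XX minus XY- (horizontal axis, log2, bars are standard errors of the fit) without Sry (red circles, females) and with Sry (green squares, males) for the 8 autosomal genes with the smallest p for the difference of the 2 contrasts in each direction. The 2 contrasts have opposite signs in all 16 genes, as they do in all 191 autosomal probe sets that passed. The plotted genes and the 191 were chosen by that test, which favours opposite signs.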

How the data were processed

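Thymus RNA of 12 mice, 3 in each of 4 groups, was hybridized to Affymetrix arrays after biotin labelling from 10 µg of total RNA, per the labels. The deposited log2 values are RMA expression values, as the submitters' processing notes state; neither the RMA version nor a genome build was found in those notes. The number of arrays limits the precision. The members and gene lists were chosen with earlier results of these data known.

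The table holds 45101 probe sets, of which 64 are array controls and were not analysed. The tests covered the 17908 that averaged 5 or more across the 6 female arrays. Symbols came from the platform table: 34958 probe sets had 1, 932 several and 9211 none. Entrez IDs linked 34754 of those with 1 symbol to RefSeq genes (GRCm38.p6) for the chromosome and left 204 unplaced. The tested set held 15270 autosomal and 461 X-linked probe sets, and 2175 without a chromosome.

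The linear model used all 12 arrays and limma 3.58.1 under R 4.3.3 (lmFit, then eBayes; 8 residual and 3.67 prior degrees of freedom). P-values were adjusted by Benjamini-Hochberg over every tested probe set, with a threshold of 0.05, and the code was tested on simulated data. Probe sets with several symbols are not named. The named genes are sex chromosome genes past the threshold or on the lists, the 12 autosomal genes per direction with the smallest p, the 10 largest differences without overlap, up to 4 members per list with an unadjusted p under 0.05, and the 8 per direction with the smallest p for the difference by Sry. A few other members and probe sets are named for comparison and were chosen after their values were seen.

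Alternatives were no filter, a filter at 6, centring on array medians, quantile normalization, limma's trend and robust options, array weights, a single probe set for each gene, autosomal probe sets alone, other thresholds, a replicate block, the actin difference as a covariate, the 6 female arrays alone, and each array left out. Samples with the same replicate number were not treated as paired. Figures were drawn with matplotlib 3.10.9.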

Additional observations from a re-analysis of the deposited data

Results flagged for a closer look

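Results are given here where the XX minus XY- difference without Sry differed from that with Sry by the test of the difference itself (limma adjusted p under 0.05). In all, 191 autosomal probe sets did. The values are the difference of the 2 contrasts on the log2 scale, and the count of 191 was 0 in 5 of the 12 fits that left out 1 array.

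The XX minus XY- difference, not the level of the gene, was higher without Sry for the splicing genes Arglu1 (1.35), Prpf19 (1.07) and Snrpd3 (1.05). It was also higher for Gm6958 (0.97), Lmnb1 (0.94), Rraga (0.86), Swi5 (0.80) and Ywhab (0.64). The peptide loading chaperone Pdia3 gave 0.55, the phospholipid enzymes Cds1 and Crls1 gave 0.49 and 0.38, the purine enzyme Pfas 0.44 and the mitochondrial chaperone Hspa9 0.36. Other probe sets of Ywhab gave -0.07 in the brightest and 0.37, 0.61 and 0.55 in the rest. The brighter one of Cds1 gave -0.03. Those of Gm6958 and Crls1 gave 1.03 and 0.24, and those of Hspa9 0.37 and 0.20.

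The XX minus XY- difference was lower without Sry by the largest amounts in probe sets of genes that also have brighter ones. These were Phip (-2.40), Kmt2e in 2 probe sets (-2.37 and -1.94), Hnrnpab (-2.28), Cdca7 (-2.22), Btg1 (-2.01), Fam102b (-1.99), Matr3 (-1.91), Elf1 (-1.91) and Elavl1 (-1.47). Smaller values were those of Msi2 (-1.09), Rap2b (-1.01), Slc25a30 (-0.98), Zbtb20 (-0.98), the early response gene Btg2 (-0.98), Nsd3 (-0.96), Pdcd6ip (-0.83), Ccdc88c (-0.81), 4632427E13Rik (-0.76), Plpp3 (-0.72), Timp3 (-0.70), Nlk (-0.70), Cd28 (-0.69), Enpp5 (-0.61), H2-T24 (-0.55), the X-linked helicase Ddx3x (-0.51), Junb (-0.50) and Arhgef12 (-0.35). The XX females of Elavl1, Matr3, Cdca7, Btg1, Msi2 and Ccdc88c averaged below 5, so the sizes of those values are uncertain. The brightest probe sets of Timp3, Pdcd6ip and 4632427E13Rik gave -0.08, -0.06 and -0.08, and the dimmer one of Arhgef12 gave -0.02.

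Over the alternatives in which each was tested, Lmnb1 and Enpp5 passed in 16 of 22, Cd28 in 15 of 22, Fam102b in 15 of 21 and Arhgef12 in 4 of 22. The fit with the actin difference as a covariate left 1 autosomal call; that difference moves with the groups, so its part cannot be told apart from theirs.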

How the results depend on the processing

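The count of 13 for the complement without Sry (0 autosomal) became 24 (1 autosomal) with no filter, 23 (7) at an adjusted p under 0.1, 5 (0) with 1 probe set per gene, 6 (0) in the 6 female arrays alone and 1556 (1327) with array weights. The autosomal count was 2 with median centring, 2 with an intensity trend and robust settings and 1 with the actin covariate. Leaving out 1 array gave 9 to 19 (0 to 6 autosomal). Autosomal probe sets with an unadjusted p under 0.05 numbered 876 with 1 probe set per gene, 1148 in the 6 female arrays and 1079 to 2160 with 1 array left out. The count for the difference by Sry, 249 (191 autosomal), became 498 (369) at an adjusted p under 0.1, 1314 (1010) with array weights, 15 (15) with 1 probe set per gene, 1 (1) with the actin covariate, 122 autosomal with no filter, and 0 to 470 (0 to 328 autosomal) with 1 array left out. The fit with 1 probe set per gene tests fewer probe sets and keeps only the brightest of each gene. By those probe sets, 23 autosomal genes passed for the difference by Sry on the higher side and 31 on the lower side in the main fit. The fit to 6 arrays uses fewer samples. What part these or the other changes played in the counts was not tested.

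With a replicate block, the counts were 23 (7 autosomal) and 395 (276). The labels give no batch and do not say whether same-numbered samples were handled together. Deviations of same-numbered arrays correlated at -0.0766, 0.312 and 0.297, and 4 of 6 arrays correlated best with their own number. Whether same-numbered arrays shared a batch was not tested.

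Among named genes, the values without Sry kept direction and side of the threshold in 2771 cases, gained the call in 107, lost it in 46 and reversed in 4: the Sry probe set (0.0779 with array weights) and Usp9x (-0.0606 with array weights, -0.142 with the actin covariate, and -0.0933 to 0.167 with 1 array left out, the lowest without XY- replicate 2). The difference by Sry kept its call in 560 and lost it in 386. List medians moved by less than the spread between arrays in 1095 cases and by more in 50. With 3 arrays a group, the smallest difference called was 0.44, and signals near the bottom of the range give bounds.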

Other observations

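In lists that the comparisons above do not describe 0 members passed (XX minus XY-, log2; the median of all autosomal genes was 0.033, or 0.0033 without XY- replicate 2). The 6 plasma cell genes had a median of 0.14, or 0.049 without XY- replicate 2. Among them Mzb1, a chaperone of immunoglobulin assembly, differed by 0.44 ± 0.229, and the list means, 7.65, 7.74 and 7.82 in XX and 7.64, 7.44 and 7.70 in XY-, overlapped. The 9 fat cell genes had a median of 0.04, with Adipoq, which encodes adiponectin, at -0.16 ± 0.643 and Car3 at 0.04 ± 0.822, the widest errors of that list. Of 16 glucocorticoid receptor genes and targets, 4 were above zero, with a median of -0.037, and of 12 circadian clock genes 4, with -0.032. Both lists respond to stress or to the time of dissection, and neither had a member with an unadjusted p under 0.05. The 14 class II presentation genes had a median of -0.037, or -0.12 without XY- replicate 2, and the 20 dendritic cell and macrophage genes 0.01.

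Of 13 imprinted genes, Airn, the antisense noncoding RNA of the Igf2r locus, had 6.44, 6.40 and 6.35 in XX and 6.13, 6.35 and 6.12 in XY-, a difference of 0.20 ± 0.0699 with overlapping groups. Of 20 Nrf2 targets, Gclm, a subunit of the enzyme that starts glutathione synthesis, differed by -0.13, and of 16 cytokine signalling genes Jak3 by 0.17. The proapoptotic Bcl2 family genes Bak1 and Bid differed by 0.19 and 0.15. The 11 genes of natural killer and innate-like T cells had a median of 0.067, which was -0.047 without XY- replicate 2, and the 8 of regulatory T cells 0.023. The 17 TGF-beta genes (0.0067) and the 20 chemokines and homing receptors (0.047) had no member with an unadjusted p under 0.05.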
